A study of Homo sapiens with 12 samples.

Results

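The ERBB2 neighbourhood on 17q12-q21 is the stretch of chromosome 17 that is copied together with ERBB2 in many HER2-positive breast tumours. It was taken as a fixed list of 39 genes in genomic order, from MLLT6 on the centromeric side to RARA on the telomeric side, out of 26485 genes in the table. All 39 were found by symbol, and on GRCh38.p14 they ran in the listed order from 38705273 to 40357643, a span of 1.65 Mb. A total of 35 members had at least 1 normalised read count in at least 3 libraries and were tested among 13794 genes, and NEUROD2, ZPBP2, GSDMA and CSF3 were below this filter.

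Gene amplification raises the number of templates for every gene in the copied stretch, so that genes with unrelated functions can be highly expressed side by side. ERBB2 encodes the receptor tyrosine kinase HER2, which has no ligand of its own and signals through dimers, above all with HER3. The genes next to it, among them GRB7, MIEN1, STARD3 and PGAP3, form the segment most often shared between tumours, whereas the flanks to both sides differ from tumour to tumour.

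The cells were BT474, an established breast cancer line with HER2 and the oestrogen receptor, and the drug lapatinib blocks the kinases of HER2 and EGFR. Messenger RNA was read in 12 libraries, 3 in each of 4 groups. Control cells were taken at day 0, drug-tolerant persisters (DTP) after 9 days, drug-tolerant expanded persisters (DTEP) after 6 months and long-term resistant cells (LR) after 9 months in 1 µM lapatinib. The treatment label of the Control libraries also names lapatinib, but since their titles call them Control at day 0 they were treated as cells before the drug. All groups came from the same line, and the study describes the libraries of a group as technical replicates and elsewhere as plates kept in parallel. The p-values therefore measure the spread between these libraries, which may be technical. DNA copy number was not analysed here, so a change in copies and a change in transcription per copy cannot be told apart.

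Depth was 16383363 to 25030482 assigned reads per library. Of 10 luminal and HER2-positive markers, 10 had a group mean of at least 1 normalised read count in Control, DTP and DTEP and 9 in LR, where ESR1, the oestrogen receptor, was at 0.211, 0.0553 and 0.194. Their summed level ran from 12329 to 12814 in the Control libraries and from 14437 to 16390 in the DTP libraries. It was lower in DTEP (5210 to 6909) and LR (4662 to 6241), and ERBB2 itself is in this sum. The other 9 markers summed to 5973 to 6055 in the Control libraries and 6521 to 7254 in the DTP libraries, and then to 3677 to 4806 (DTEP) and 2791 to 4344 (LR). They did not move together: the luminal transcription factor GATA3 had means of 190, 454, 1159 and 1251 in Control, DTP, DTEP and LR, and FOXA1 had 394, 277, 731 and 799, while the adhesion gene CDH1 had 1125, 743, 109 and 75.1. Of 5 fibroblast, 5 leukocyte and 3 endothelial markers at most 1 each reached a mean of 1 (COL1A1, with means of 55.3, 54.4, 99.8 and 111 in the 4 groups, CD68 and, in Control and DTP, VWF), and CD3E had no read in any library. Of 4 basal markers TP63 alone reached it, with means of 4.94, 0.785, 15.2 and 42.6 in the same order of groups. In bulk RNA, fewer cells that express a gene and less RNA per cell cannot be told apart.

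The neighbourhood was a large part of the transcriptome before treatment. The members took 4.01 ± 0.113% of all assigned reads in Control and 5.62 ± 0.484% in DTP, and then 0.694 ± 0.254% in DTEP and 0.534 ± 0.0495% in LR (SD, n = 3). The DTEP libraries 1, 2 and 3 gave 0.985%, 0.577% and 0.519%, and each lay below every Control and DTP library. Per kb of the longest annotated transcript, the median member stood at the 97.3rd percentile of 12562 tested genes in Control, and 20 of 35 were in the highest 10 percent. In DTEP 8 and in LR 9 members were still there. RPL19 ranked 1, LASP1 3, PSMB3 4 and ERBB2 6 from the highest in Control. ERBB2 itself ranked 6 in DTP, 69 in DTEP and 50 in LR on the same scale of normalised read counts per kb.

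ERBB2 (Entrez 2064, plus strand, chromosome 17, 39688094 to 39728658) had 6390, 6356 and 6833 normalised read counts in Control replicates 1, 2 and 3. It had 9136, 8583 and 7917 in DTP, 2103, 1244 and 1534 in DTEP, and in LR 1555, 1897 and 1870. All DTP libraries lay above all Control libraries, and all DTEP and LR libraries lay below both. The change from Control to DTP was 0.39 on the log2(value + 1) scale used for all changes here (SE 0.23, limma adjusted p 0.169), and it passed the adjusted p with DESeq2 and in a fit of only the 6 libraries compared. ERBB2 then fell by 2.42 from DTP to DTEP (SE 0.23, limma adjusted p 1.86e-06), to 19% of its DTP mean. Between DTEP and LR the libraries overlapped, with a change of 0.15 (SE 0.23, limma adjusted p 0.642). Without DTEP replicate 2 this last change was -0.02.

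PGAP3 (Entrez 93210, minus strand, 39671122 to 39688057) encodes an enzyme that remodels the lipid of GPI anchors, and its annotated start lies 37 bases from that of ERBB2 on the other strand. Its level was 570, 555 and 606 in Control, 1735, 1535 and 1259 in DTP, 159, 75.9 and 41.5 in DTEP, and in LR 38.0, 36.3 and 54.9. It rose by 1.37 in DTP (SE 0.36, limma adjusted p 0.00672) and fell by 4.22 in DTEP (SE 0.36, limma adjusted p 8.53e-07). The 2 promoter windows of 300 bases (250 before to 50 after each RefSeq start, GRCh38.p14) share 136 bases, and they are shown because these 2 genes start side by side and had changes of unlike size. Capitals mark the shared bases, which the PGAP3 window reads in the reverse complement. The ERBB2 window is at chr17:39687844-39688143 on the plus strand and the PGAP3 window at chr17:39688008-39688307 on the minus strand.
ERBB2: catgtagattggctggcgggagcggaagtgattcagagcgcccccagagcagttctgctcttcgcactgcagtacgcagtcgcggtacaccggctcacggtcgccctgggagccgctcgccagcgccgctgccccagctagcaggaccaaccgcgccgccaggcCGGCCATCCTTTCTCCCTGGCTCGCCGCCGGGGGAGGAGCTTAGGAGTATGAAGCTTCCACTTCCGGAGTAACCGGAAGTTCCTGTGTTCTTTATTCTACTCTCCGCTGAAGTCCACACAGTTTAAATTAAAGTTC
PGAP3: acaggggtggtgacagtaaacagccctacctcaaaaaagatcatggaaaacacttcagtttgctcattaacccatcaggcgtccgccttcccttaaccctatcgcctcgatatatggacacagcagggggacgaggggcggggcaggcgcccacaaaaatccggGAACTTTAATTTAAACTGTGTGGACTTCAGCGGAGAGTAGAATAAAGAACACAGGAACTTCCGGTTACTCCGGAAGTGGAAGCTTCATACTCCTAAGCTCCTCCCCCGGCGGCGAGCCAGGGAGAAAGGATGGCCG
The RefSeq start of ERBB2 is its outermost one, and the MANE Select transcript of the gene starts 11970 bases further downstream. The level of PGAP3 relative to ERBB2 in the same library was 0.0873 to 0.0892 in Control and 0.159 to 0.190 in DTP. It was 0.0271 to 0.0754 in DTEP and 0.0191 to 0.0293 in LR. The groups DTP, Control and LR did not overlap in this ratio, and DTEP overlapped LR. Both genes share 144 exonic bases on opposite strands, and reads from there cannot be assigned to a strand with the counting that was used.

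GRB7 (Entrez 2886, 39737938 to 39747285), an adaptor that binds the phosphorylated HER2 tail, had 543, 526 and 571 normalised read counts in Control and 1448, 1322 and 1131 in DTP. It had 233, 125 and 89.9 in DTEP, and in LR 91.5, 113 and 158. GRB7 rose in DTP by 1.24 (SE 0.29, limma adjusted p 0.00357) and fell by 3.22 in DTEP (SE 0.29, limma adjusted p 1.4e-06). MIEN1 (Entrez 84299, 39728510 to 39730532), a small membrane-anchored protein linked to migration, had 336, 330 and 344 in Control, 794, 759 and 578 in DTP, 157, 73.6 and 23.7 in DTEP, and in LR 37.2, 61.5 and 45.0. Its change in DTP (1.06, SE 0.48, limma adjusted p 0.081) missed the threshold, while in DTEP it fell by 3.41 (limma adjusted p 5.21e-05). MIEN1 shares 571 exonic bases with ERBB2 on the opposite strand, 28.0% of its own exon length, and how many of its reads come from ERBB2 was not tested. STARD3 (Entrez 10948, 39637144 to 39664201), which moves cholesterol between membranes, had 653, 632 and 687 in Control, 958, 857 and 753 in DTP, 168, 99.4 and 67.0 in DTEP, and in LR 59.0, 85.6 and 101. Its change in DTP was 0.37 (limma adjusted p 0.280), and it fell by 3.02 in DTEP (SE 0.28, limma adjusted p 1.69e-06).

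The core also holds genes whose main site of expression is another tissue. TCAP (Entrez 8557, 39665349 to 39666554), a structural protein of the muscle sarcomere, had 12.2, 11.0 and 12.8 normalised read counts in Control, 52.6, 48.4 and 33.4 in DTP, 6.75, 3.13 and 1.07 in DTEP, and in LR 0.634, 1.16 and 1.07. It rose by 1.79 in DTP (SE 0.37, limma adjusted p 0.00175), the largest rise of a member in that comparison, and fell by 3.48 in DTEP (SE 0.37, limma adjusted p 5.65e-06). PNMT (Entrez 5409, 39668019 to 39670475), the last enzyme of adrenaline synthesis, had 7.27, 5.65 and 8.48 in Control, 5.27, 3.55 and 2.82 in DTP, 1.82, 0.453 and 0.0561 in DTEP, and in LR 0.0422, 0.0553 and 0.194. Its change in DTP was -0.75 (limma adjusted p 0.056), and it fell by 1.55 in DTEP (SE 0.31, limma adjusted p 0.000719). PPP1R1B (Entrez 84152, 39626707 to 39636624), the phosphatase inhibitor DARPP-32 of dopamine neurons, had 3.59, 3.48 and 4.47 in Control, 0.574, 0.346 and 0.346 in DTP, 0.144, 0.0412 and 0 in DTEP, and in LR 0.0422, 0.111 and 0.194. It was the member with the lowest change in DTP, at -1.77 (SE 0.13, limma adjusted p 1.03e-06). From DTP to DTEP it fell by 0.42 (SE 0.13, limma adjusted p 0.0111), a value that rests on at most 11 reads in any of these libraries.

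IKZF3 (Entrez 22806, minus strand, 39757715 to 39864312), the lymphoid transcription factor Aiolos, stood at 327, 323 and 318 normalised read counts in Control and 252, 263 and 282 in DTP. It was at 32.5, 12.5 and 1.85 in DTEP and at 0.0845, 0.111 and 0.388 in LR, which is 2, 2 and 8 reads. The DTP change was -0.28 (SE 0.61, limma adjusted p 0.730), and IKZF3 then fell by 4.61 in DTEP (SE 0.61, limma adjusted p 3.28e-05) and changed by -3.20 from DTEP to LR (SE 0.61, limma adjusted p 0.0157). The plot of levels in each library shows these steps beside those of its neighbours.

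**Figure D1:**
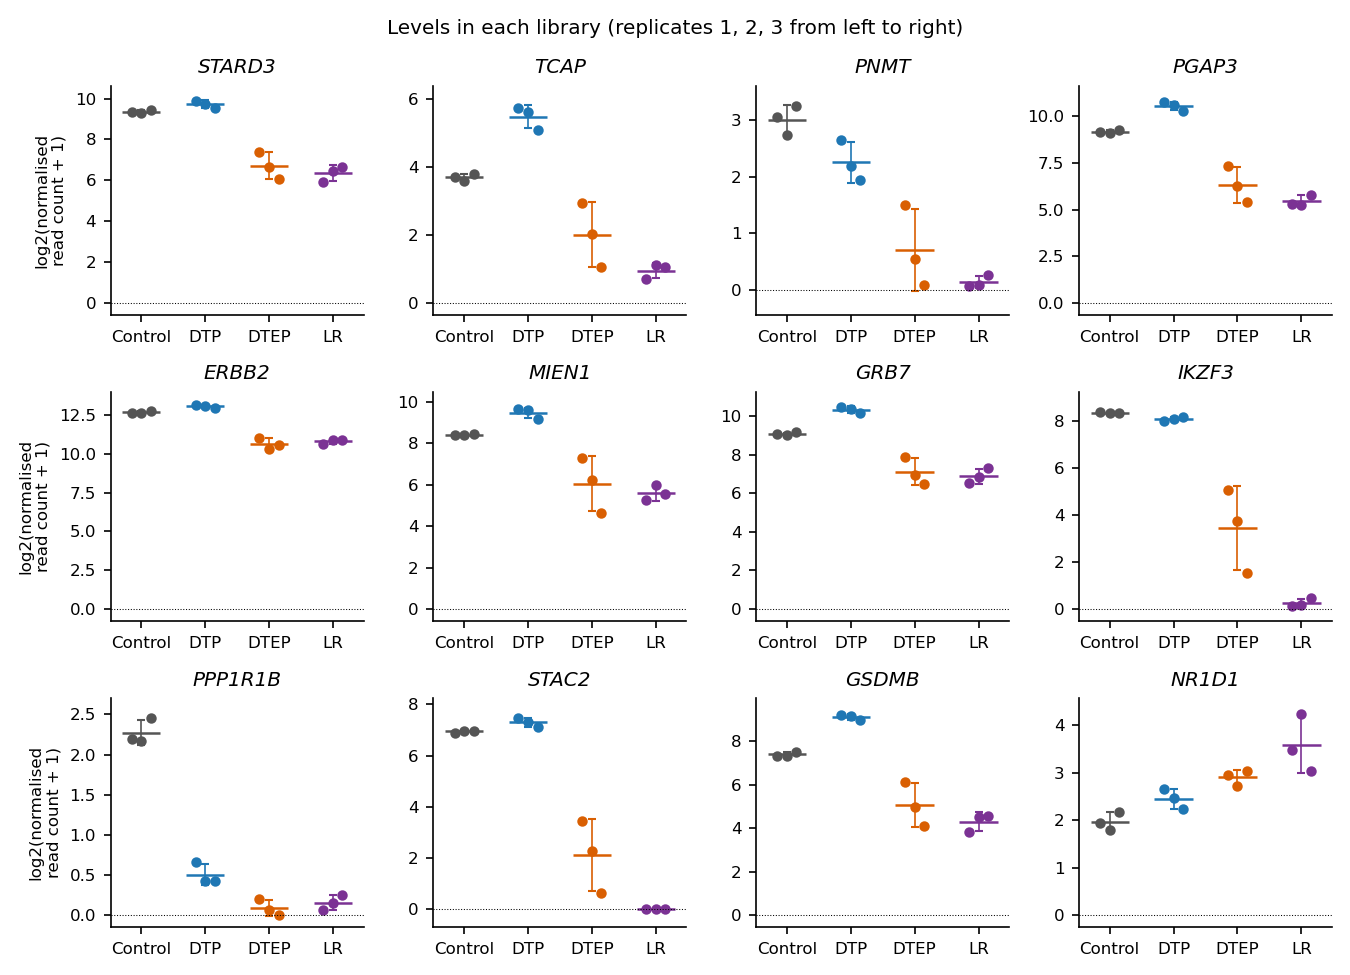
Levels of 12 members as log2(normalised read count + 1) in the 4 groups (points are libraries, horizontal lines group means, bars 1 SD, n = 3). ERBB2 keeps the highest level on this axis in DTEP and LR. IKZF3, STAC2, PNMT and PPP1R1B end at or near 0 in LR, and NR1D1 shows the opposite direction.

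From Control to DTP no member changed by more than 2 on the log2(value + 1) scale, so none was called at an adjusted p below 0.05 with a change beyond 2. The added 1 limits this for low genes: by the ratio of means PPP1R1B was 9.12-fold lower in DTP. Among all genes 1.01% were called higher and 3.9% lower. At the adjusted p alone, 10 of the 35 members rose, against 25.2% of all genes, and 6 fell, against 28.8%. The members' median change was 0.37 and that of all genes -0.01. The rises ran from RARA (0.57) and PLXDC1 (0.66) over MLLT6 (0.82), FBXL20 (0.94), GRB7 (1.24), RPL23 (1.29), PGAP3 (1.37), CACNB1 (1.50) and GSDMB (1.72) to TCAP. RARA is the retinoic acid receptor alpha, FBXL20 an F-box protein of ubiquitin ligases, CACNB1 a calcium channel subunit and GSDMB a gasdermin, a protein family that forms pores in membranes. In the centromeric flank (MLLT6 to CDK12) 5 members rose and 3 fell, in the core (NEUROD2 to IKZF3) 3 rose and 1 fell, and in the telomeric flank (ZPBP2 to RARA) 2 rose and 2 fell.

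Members that fell in DTP lay between members that rose. CDK12 (Entrez 51755, 39461486 to 39567559), a kinase of the elongating RNA polymerase, had 1015, 1014 and 990 normalised read counts in Control and 257, 306 and 478 in DTP, and fell by 1.58 (SE 0.20, limma adjusted p 6.82e-05). MED1 (Entrez 5469, 39404285 to 39451263), the Mediator subunit that contacts nuclear receptors, had 2641, 2653 and 2656 in Control and 1012, 1146 and 1463 in DTP, and fell by 1.15 (SE 0.15, limma adjusted p 7.29e-05). Both were lower in each DTP library than in each Control library, whereas FBXL20, which adjoins MED1, went from 452, 456 and 452 to 816, 867 and 933. The actin-binding protein LASP1 (-0.62), the chromatin protein MSL1 (-0.37) and the actin regulator WIPF2 (-0.50) were the others that fell. LASP1, MSL1, WIPF2 and RARA lost the adjusted p without single libraries, with p of up to 0.118, 0.151, 0.0695 and 0.133. In a fit of only the 6 libraries compared 29 of 35 members passed the adjusted p, beside 10067 of all 13794 genes.

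From DTP to DTEP the neighbourhood fell almost as a whole. Of the 35 members 26 were called lower, against 7.02% of all genes, and none higher, against 8.13%. At the adjusted p alone 33 fell, against 32.6% of all genes, and none rose, against 35.7%. The median change was -2.96, against 0.08 for all genes, and it was -2.96 again with PPP1R1B at the limit that 3 reads set. In 33 members every DTEP library lay below every DTP library, against 32.8% of all genes. The median was -2.96 in the centromeric flank, -3.22 in the core and -2.76 in the telomeric flank. ERBB2, at -2.42, fell less than 22 of the other tested members.

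**Figure D2:**
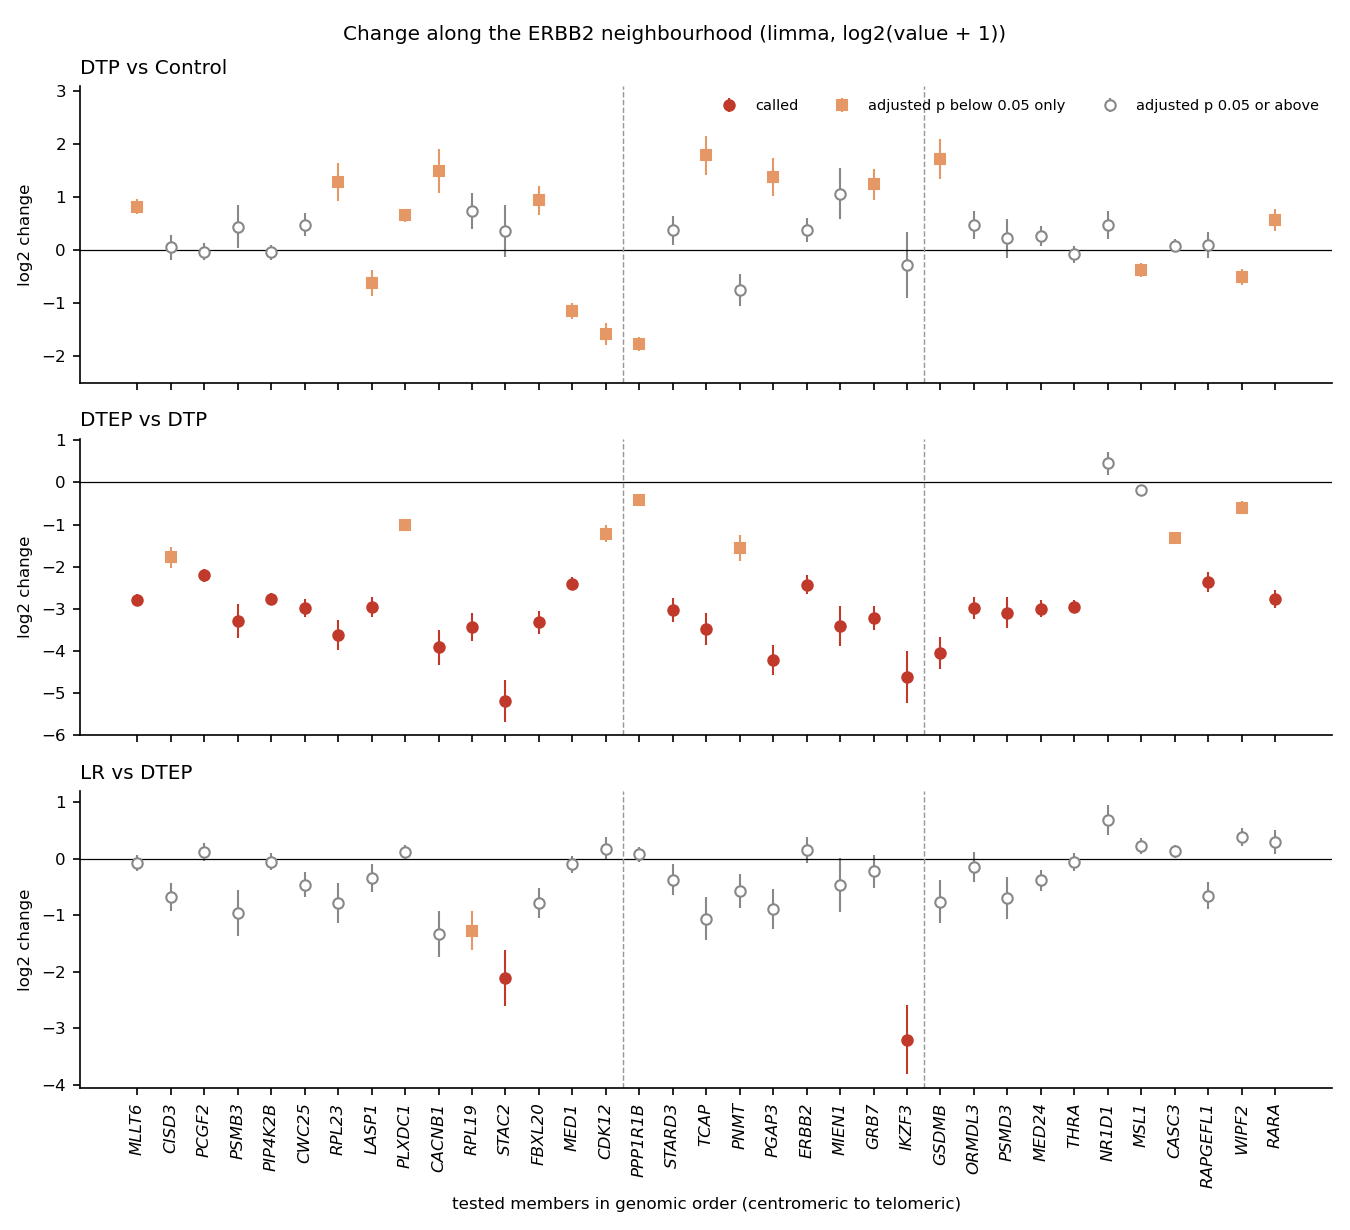
log2 change of the 35 tested members in genomic order, with the SE of the limma fit as bars, for the 3 successive comparisons; dashed lines bound the core segment. In DTEP against DTP the values lie between -5.19 (STAC2) and 0.45 (NR1D1), and 26 of 35 are called lower.

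The strongest fall was that of STAC2 (Entrez 342667, minus strand, 39210541 to 39225945), an adaptor of voltage-gated calcium channels. It had 118, 124 and 124 normalised read counts in Control, 177, 159 and 138 in DTP and 9.81, 3.79 and 0.561 in DTEP. No read was found in any LR library, which allows up to 3 reads per library, so LR was at least 837-fold lower than Control. From DTP to DTEP STAC2 fell by 5.19 (SE 0.49, limma adjusted p 1.99e-06), after a change of 0.36 in DTP (limma adjusted p 0.564). The smallest fall of the centromeric flank was that of PLXDC1 (Entrez 57125, 39063313 to 39152967), a plexin-domain protein of blood vessels, whose levels are so low that the added 1 limits the change. It had 0.736, 0.652 and 0.699 in Control, 1.72, 1.43 and 1.90 in DTP, 0.478, 0.165 and 0.393 in DTEP, and in LR 0.380, 0.498 and 0.484, and it fell by 1.00 in DTEP (SE 0.12, limma adjusted p 1.89e-05). By the ratio of means PLXDC1 was 4.88-fold lower, and PCGF2, a Polycomb protein that fell by 2.21, was 4.63-fold lower.

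Every other member of the centromeric flank fell in DTEP too, with changes from -1.21 (CDK12) to -3.91 (CACNB1). MLLT6, a chromatin protein known from leukaemia fusions, had mean normalised read counts of 1449, 2563, 370 and 349 in Control, DTP, DTEP and LR, and its change from DTP to DTEP was -2.79. The means of PIP4K2B, a lipid kinase, were 1565, 1524, 226 and 215 (-2.77), and those of CWC25, a splicing factor, 302, 420, 55.4 and 37.9 (-2.98). CISD3, a mitochondrial iron-sulfur protein, had means of 340, 357, 108 and 63.6 (-1.78), and PCGF2 had 667, 657, 142 and 154. CACNB1 went through means of 34.2, 99.1, 6.60 and 1.79, LASP1 through 6710, 4351, 580 and 451 (-2.96) and FBXL20 through 453, 872, 94.1 and 49.7 (-3.32), and MED1 changed by -2.40. CDK12, already low in DTP, fell by 1.21 (SE 0.20, limma adjusted p 0.000206), from 257, 306 and 478 to 127, 162 and 145. CISD3 and PCGF2 share 1703 exonic bases on opposite strands, 54.6% of the exon length of CISD3, so these values are uncertain.

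The telomeric flank did not fall evenly. Between GSDMB and THRA, the thyroid hormone receptor alpha, all 5 tested members were called lower in DTEP than DTP, with a median of -2.99 and a range from -4.05 to -2.95. GSDMB (Entrez 55876, 39904595 to 39918635) had the lowest change of the flank (-4.05, SE 0.38, limma adjusted p 2.03e-06). It had 159, 160 and 180 normalised read counts in Control, 587, 571 and 498 in DTP, 67.8, 30.5 and 15.9 in DTEP, and in LR 12.9, 21.7 and 22.8. ORMDL3, a regulator of sphingolipid synthesis, had means of 842, 1170, 160 and 134 in Control, DTP, DTEP and LR, and its change from DTP to DTEP was -2.98. The means of the proteasome subunit PSMD3 were 2250, 2630, 356 and 193 (-3.09), those of MED24 965, 1162, 148 and 112 (-2.99) and those of THRA 153, 145, 18.3 and 17.3 (-2.95).

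From NR1D1 on, the changes were uneven, with a median of -0.95 over 6 members. NR1D1 (Entrez 9572, minus strand, 40092793 to 40100589), the circadian repressor REV-ERB alpha, had 2.85, 2.45 and 3.54 normalised read counts in Control, 5.32, 4.54 and 3.69 in DTP, 6.70, 5.64 and 7.24 in DTEP, and in LR 10.2, 17.9 and 7.27. Its change from DTP to DTEP was 0.45 (SE 0.27, limma adjusted p 0.150), and it was the only tested member with a change above 0 there. It overlaps THRA by 473 exonic bases on the opposite strand. MSL1 (Entrez 339287, 40121971 to 40136917), a subunit of a histone H4 acetyltransferase complex, had 147, 151 and 155 in Control, 101, 115 and 137 in DTP, 94.4, 104 and 108 in DTEP, and in LR 126, 130 and 104. Its DTEP libraries overlapped those of DTP (-0.19, SE 0.14, limma adjusted p 0.232), but the change passed the adjusted p with DESeq2 and with the library medians set equal.

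The next genes did not share one value. CASC3, a part of the exon junction complex, had means of 188, 200, 80.5 and 87.7 and changed by -1.31 from DTP to DTEP. RAPGEFL1, named for its likeness to guanine exchange factors, had means of 34.3, 36.7, 6.59 and 3.77 and changed by -2.36. WIPF2 changed by -0.60 and RARA, at the telomeric end, by -2.76. WIPF2 (Entrez 147179, 40219304 to 40284136) had 91.5, 92.9 and 94.9 normalised read counts in Control, 56.8, 66.5 and 73.8 in DTP, 36.3, 42.1 and 51.5 in DTEP, and in LR 55.1, 63.4 and 50.3. RARA (Entrez 5914, 40309180 to 40357643) had 81.0, 77.4 and 79.7 in Control, 135, 116 and 106 in DTP, 22.4, 14.8 and 13.8 in DTEP, and in LR 16.8, 27.7 and 18.3. RARA thus had a change like that of the core at the far edge of the list, and MSL1 and WIPF2, closer to ERBB2, had smaller ones.

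The span holds 18 further genes of the table that are not listed as members, and 7 of them were tested. The cell-cycle gene CDC6, between WIPF2 and RARA, was the exception in direction, with 123, 125 and 128 normalised read counts in Control, 4.02, 4.74 and 5.47 in DTP, 61.0, 73.4 and 26.4 in DTEP, and in LR 14.7, 4.21 and 24.6. It changed by -4.47, 3.14 and -1.97 in the successive comparisons (limma adjusted p 2.32e-05, 0.000114 and 0.0365). The non-coding LINC00672 changed by -3.54 in DTEP, SNORA21, which lies in RPL23, by -2.48 and MIR4728, which lies in ERBB2, by -2.06, and these were called too. Counts at the small RNAs share position with the host gene, and how many of them come from the host was not tested.

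Along chromosome 17 the lowest changes from DTP to DTEP were at the neighbourhood, but in DTEP against Control another window was lower. In 54 windows of 1 Mb with at least 5 tested genes, the lowest median change was -3.09 in the window from 39 Mb, which holds 19 members among 21 tested genes, and the next was -2.62 in the window from 38 Mb, with 8 members among 16. The third, -2.13 in the window from 37 Mb, holds no member, nor does the fourth, -2.04 in the window from 58 Mb, where 5 of 10 tested genes were called lower. In DTEP against Control the window from 58 Mb had the lowest median (-2.48, 7 of 10 called lower), ahead of those from 39 Mb (-2.38) and 38 Mb (-2.35). In LR against Control the window from 39 Mb was lowest (-2.88) and that from 58 Mb next (-2.44). The window from 40 Mb, with 8 members among 18 tested genes, had a median of -0.78 in DTEP against DTP and ranked 16 from the lowest. The 10 tested genes next to MLLT6 on the outside had a median of -2.14, with all 10 past the adjusted p and 6 called lower. The 10 tested genes beyond RARA had a median of -0.70, with 2 called lower and 2 higher. The 773 other tested genes of chromosome 17 had a median of -0.37, and 63 were called lower. The fall thus reached beyond the list on the centromeric side.

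**Figure D3:**
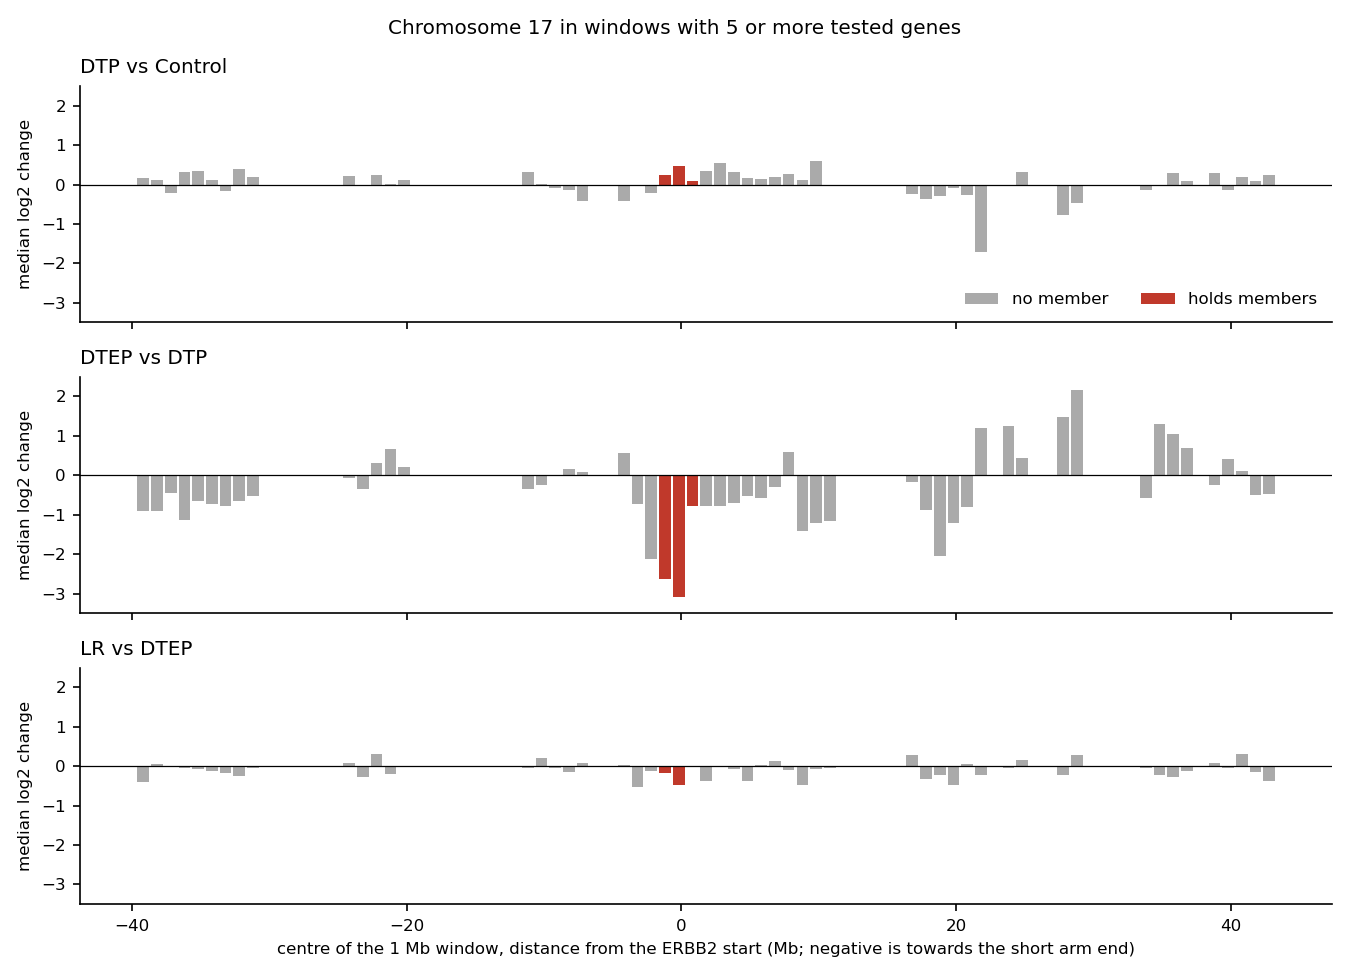
Median log2 change of the tested genes in windows of 1 Mb on chromosome 17, against the distance of the window from the start of ERBB2; windows with members are red. In DTEP against DTP the lowest bars are the window that holds the ERBB2 start, at -3.09, and its centromeric neighbour, at -2.62. The next window on that side, without members, is at -2.13, and the telomeric window with members is at -0.78.

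A pair of other segments that are often amplified in breast cancer was described in the same way. The 15 tested genes of the 17q23 list, around PPM1D and RPS6KB1, had a median of -0.64 in DTEP against DTP, with 1 called lower, and against Control its median was -1.22 in DTEP and -1.56 in LR. The 13 tested genes of the 20q13 list, around ZNF217 and AURKA, had a median of -2.07, with 7 called lower. Against Control the 20q13 median was -2.40 in DTEP and -2.93 in LR, beside -2.35 and -2.88 for the members of the neighbourhood.

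Members that belong to large complexes can be set against the subunits encoded elsewhere. RPL23 and RPL19 are proteins of the large ribosomal subunit, PSMB3 and PSMD3 of the proteasome, and MED1 and MED24 of Mediator. RPL23 had 3121, 3076 and 3028 normalised read counts in Control, 7889, 8294 and 6438 in DTP, 1274, 498 and 359 in DTEP, and in LR 324, 358 and 383. RPL19 had 7047, 6696 and 7278 in Control, 13443, 12518 and 9597 in DTP, 2079, 947 and 652 in DTEP, and in LR 427, 414 and 510. In DTP the change was 1.29 for RPL23, which rose, and 0.74 for RPL19 (limma adjusted p 0.0843), and 70 of 82 other tested ribosomal protein genes rose, with a median of 0.87.

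In DTEP the members parted from their complexes. RPL23 changed by -3.62 and RPL19 by -3.43, the lowest changes among 84 ribosomal protein genes, whose others had a median of -0.21 and 2 calls lower. PSMB3, with means of 1263, 1730, 213 and 89.4 in the 4 groups, changed by -3.28 and PSMD3 by -3.09, against a median of 0.10 and no call lower among 30 other proteasome subunits. MED24 changed by -2.99 and MED1 by -2.40, against a median of 0.05 and no call lower among 28 other Mediator subunits. In each complex the members had the lowest changes of all tested subunits. In LR against DTEP the medians of the others were -0.59 (ribosome), -0.54 (proteasome) and -0.15 (Mediator), and RPL19 had the lowest change of the ribosomal list.

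**Figure D4:**
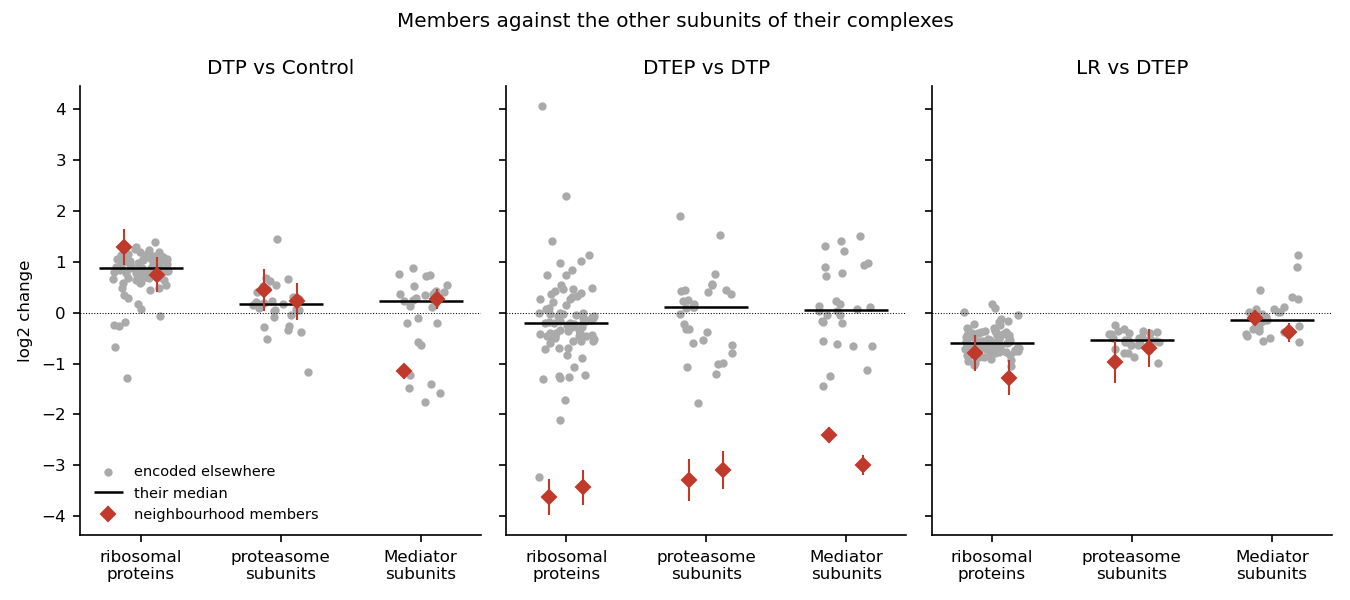
log2 change of ribosomal protein, proteasome and Mediator genes in the 3 successive comparisons; grey points are subunits encoded outside the neighbourhood, black lines their medians and red diamonds the members with their SE. In DTEP against DTP all 6 members lie between -3.62 and -2.40, below every other subunit of their complex.

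The relatives of ERBB2 and GRB7 outside the span did not all move in the same direction in DTEP against DTP. ERBB4 rose by 3.01 in DTEP (limma adjusted p 0.00344), EGFR fell by 1.42 (limma adjusted p 0.00115), and the change of ERBB3 was 0.55 (limma adjusted p 0.0990). Of these 3 receptor genes 1 was called lower already in DTP against Control, with a change of -2.36, against 3.9% of all genes. GRB10 changed by -3.75 and GRB14 by -1.62 in DTEP against DTP (limma adjusted p 7.16e-05 and 0.00538), the direction of GRB7.

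From DTEP to LR few members changed. STAC2 and IKZF3 were called lower, 2 of 35 against 0.457% of all genes, and none was called higher, against 0.225%. At the adjusted p alone RPL19 fell as well (-1.28, SE 0.34, limma adjusted p 0.0459), which makes 3 of 35 against 4.31% of all genes, and none rose, against 3.04%. STAC2 fell by 2.11 (SE 0.49, limma adjusted p 0.0307). Only these 3 members had LR libraries that all lay below all DTEP libraries, against 13.4% of all genes. NR1D1 was the only member with all above (0.69, limma adjusted p 0.0989), against 9.15% of all genes. The median change of the members was -0.37, against -0.07 for all genes.

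With each library left out in turn, between 0 and 2 members were called lower and between 0 and 19 passed the adjusted p. None passed when DTEP replicate 2 or either of the LR replicates 1 and 2 was missing, and 1 passed without DTEP replicate 1, without DTP replicate 2 or without any one Control library. Without DTP replicate 1 or 3 it was 2, and without LR replicate 3 it was 4. Without DTEP replicate 3, 19 of 35 members passed, beside 6548 of all 13794 genes. In the other fits with 1 library left out, 153 to 1154 of all genes passed. With only the 6 libraries compared none passed, and STAC2, IKZF3 and RPL19 had a limma adjusted p of 0.301, 0.298 and 0.301.

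The correlation between libraries of a group, across genes, was lowest in DTEP (r from 0.934 to 0.982, against 0.971 or more in the other groups). Over 31 members with a DTP mean of at least 5, the median level was 18.8% of the DTP mean in DTEP replicate 1, 11.4% in replicate 2 and 8.90% in replicate 3, and 8.40%, 9.63% and 11.9% in the LR libraries. Over all tested genes with the same DTP mean these medians were 95.1% to 105%. DTEP replicate 1 was the highest of its group in 30 of 35 members, against 42.8% of all tested genes, and the order of replicate 1 above 2 above 3 held in 26 of 35, against 33.8%. STAC2 and IKZF3 were at 6.22% and 12.2% of the DTP mean in replicate 1 and at 0.356% and 0.697% in replicate 3. CDK12, MSL1 and WIPF2 had their lowest value in replicate 1 instead. The hormone receptor genes ESR1 and PGR had 16.7, 6.88 and 0.842 and 147, 60.4 and 11.8 normalised read counts in DTEP replicates 1, 2 and 3, and 0.211, 0.0553 and 0.194 and 3.00, 0.332 and 4.02 in LR. Their part in the result was not tested. Without DTEP replicate 1 the median member change from DTP to DTEP was -3.18, and 27 members were called lower.

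**Figure D5:**
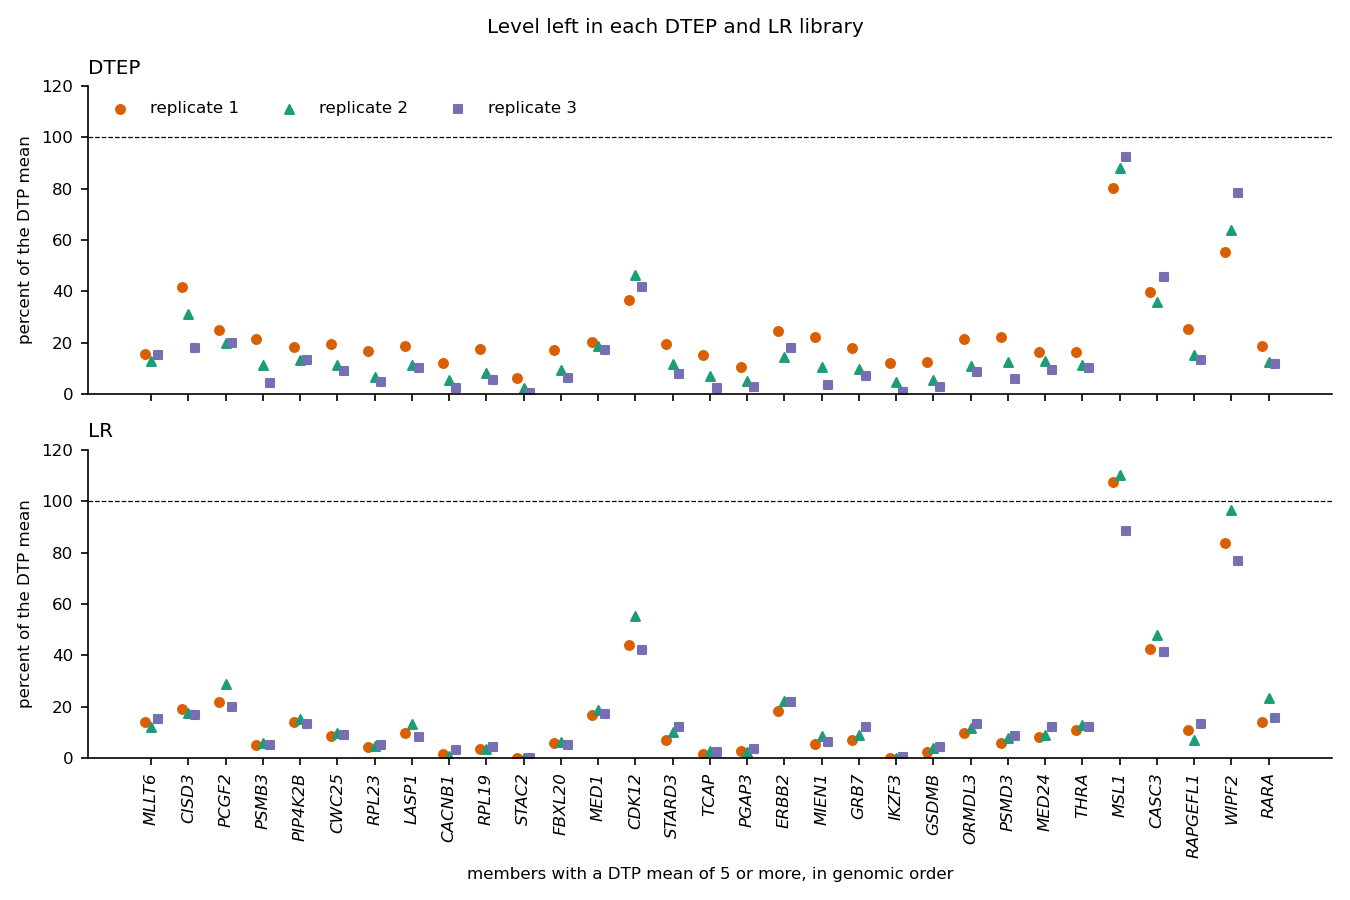
Level of 31 members in each DTEP and LR library as a percentage of the mean of the DTP libraries (dashed line at 100), in genomic order. Replicate 1 is the highest DTEP library for most members, and MSL1, at 80.4% to 92.3% in DTEP, stands apart from its neighbours.

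Against Control the fall remained. These comparisons share libraries with those above. In DTEP 26 of 35 members were called lower than in Control, against 6.2% of all genes, and none higher, against 4.43%. At the adjusted p alone 34 fell, against 28.7%, and NR1D1 rose by 0.94 (SE 0.27, limma adjusted p 0.00969), against 29.5%. The median change was -2.35, and ERBB2 fell by 2.04 (SE 0.23, limma adjusted p 1.04e-05). In LR 28 of 35 members were called lower, against 7.8% of all genes, and none higher, against 5.03%. At the adjusted p alone 33 fell, against 32.6%, and NR1D1 rose, against 30.2%, by 1.62 (SE 0.27, limma adjusted p 0.000213). The median was -2.88, and PLXDC1 (-0.22, limma adjusted p 0.139) did not pass. MSL1, with a change of -0.34, was near the threshold (limma adjusted p 0.0474) and had p of up to 0.175 with a library left out. IKZF3 changed by -8.09 and STAC2 by -6.94, the lowest changes of the members.

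The make-up of the members' reads shifted with these changes. ERBB2 held 16.1 ± 0.245% of all member reads in Control and 16.1 ± 0.436% in DTP. Its share was 23.6 ± 5.21% in DTEP and 32.6 ± 1.06% in LR (SD, n = 3). RPL19 held 17.3 ± 0.380% in Control and 22.2 ± 1.94% in DTP. It then held 16.2 ± 3.74% in DTEP and 8.31 ± 0.998% in LR. LASP1 held 16.5 ± 0.315% in Control and 8.23 ± 0.673%, 8.18 ± 0.355% and 8.30 ± 1.98% in the later groups. In LR, ERBB2 was at 27.2% of its Control mean, and 29 of 34 other tested members had a lower change against Control than ERBB2.

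The members below the filter had few reads. NEUROD2, a neuronal transcription factor, had 3, 1 and 3 reads in Control, 2, 0 and 0 in DTP, none in DTEP and 4, 0 and 0 in LR. GSDMA, a skin gasdermin, had 2, 4 and 1 in Control, 1, 1 and 0 in DTP and none in DTEP and LR. CSF3, the granulocyte growth factor, had 1, 3 and 2 reads in Control, 15, 12 and 6 in DTP, 2, 1 and 0 in DTEP, and in LR 0, 2 and 1. ZPBP2, a sperm protein, had 1 read in 1 Control library and 2 in 1 LR library. None of them was tested.

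Promoter windows from RefSeq were given for 28 of the 39 members, and those of RPL23, PLXDC1, STAC2, PPP1R1B, TCAP, PNMT, GRB7, IKZF3, GSDMB, CSF3 and CASC3 were not. Motifs were searched on both strands by their letters. The AP-2 motif GCCNNNGGC was in 9 of 28 windows (32.1%) and in 32.3% of the 10688 windows of tested genes. The GC box GGGCGG was in 67.9% against 69.2%, and the CCAAT box CCAAT in 39.3% against 36.9%. The TATA box TATAAA was in none of the 28 and in 5.60% of the windows of tested genes. The ERBB2 and PGAP3 windows shown above held no AP-2 match, and the PGAP3 window held 1 GC box. For ERBB2 this covers the outermost start only, since the MANE Select start, 11970 bases further downstream, lies outside the window and was not searched.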

How the data were processed

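Messenger RNA of BT474 cells was measured in 12 libraries, grouped by their titles. The authors aligned reads to hg38 with Rsubread 2.0.0 and counted them over RefSeq genes with default settings, which ignore strand. The deposited table holds a normalised signal per gene and library. Dividing by what 1 read is worth gave whole reads for 199680 of 199680 positive values (100.0%, tolerance 0.001 reads), and the scale equalled CPM with TMM factors recomputed with edgeR 4.0.16. A single read was worth 0.0412 to 0.0576, and 0 reads allow up to 3 reads, or 0.124 to 0.173, which covers counting error only.

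Changes were tested on log2(value + 1), which understates changes of low genes, with limma 3.58.1 in R 4.3.3 (moderated with a trend, all 12 libraries in 1 fit, two-sided, Benjamini-Hochberg adjustment over 13794 genes in each of 5 comparisons). A gene was tested if 3 or more libraries had a value of 1 or more, and it was called if its adjusted p was below 0.05 while its log2 change exceeded 2 in size. Alternatives were pseudocounts of 0.1 and 0.5, other filters, scalings and thresholds, edgeR and DESeq2 1.42.0 on the reads, and each library left out. The fits were tested on simulated reads in which 200 genes changed in DTP only. At a log2 change above 1, limma recovered 199 of them with 0 false calls. Every group had the same simulated spread, so the wider spread between DTEP libraries and the threshold of 2 were not tested. The members, lists and comparisons were chosen with earlier results of these data known, so no set test was run. Members named with all library values are those of the core and the extremes of each flank in DTEP against DTP. MED1, CDK12, FBXL20, RPL23, RPL19, WIPF2, RARA, CDC6 and the hormone receptors were given library values after these had been seen, and the PGAP3 promoter window was added likewise. The division of the telomeric flank between THRA and NR1D1 was also made after the changes had been seen. Coordinates and promoter windows came from RefSeq on GRCh38.p14, the build hg38, and transcript lengths and overlaps from GENCODE 44. Replicate numbers came from the titles. Same-numbered libraries did not deviate together as a whole (r from -0.44 to 0.36 over 18 pairs, median -0.04, 2 above 0.1). The 2 values above 0.1 were DTP with DTEP, 0.36 for replicate 1 and 0.34 for replicate 3, with -0.0046 for replicate 2. Over 36 pairs of unlike number r ran from -0.43 to 0.46, with 12 above 0.1. The numbers were therefore not used as pairs.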

Additional observations from a re-analysis of the deposited data

How the results depend on the processing

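The falls from DTP to DTEP kept their direction and their side of the adjusted p for all 33 members that fell, in each alternative that tested them. PLXDC1, PPP1R1B and PNMT were not tested under the filter of a mean of at least 5. With single libraries left out 26 to 27 members were called lower, beside 854 to 1097 of all 13794 genes. The count of members called lower in DTP against Control was 0 and became 1 with pseudocounts of 0.1 and 0.5, edgeR and DESeq2. Of all 13794 genes, 814, 632, 838 and 790 were called lower in these fits. The count of members was 3 at an absolute log2 change above 1, where 6 were higher. Counts over all genes at a change above 1 are not given here. With only the 6 libraries compared 29 members passed the adjusted p, beside 10067 of all 13794 genes. In LR against DTEP, 1 member was called lower and 1 passed the adjusted p without the filter on low values. Beside these, 32 of all 20381 genes were called lower and 537 passed the adjusted p. With only the 6 libraries these counts were 0 and 0, for the members and for all genes. With edgeR 6 members passed, beside 1900 of all 13794 genes, and with DESeq2 13 members passed, beside 3093. With single libraries left out the called count ran from 0 to 2 and the count past the adjusted p from 0 to 19. The 19 were reached without DTEP replicate 3, where 6548 of all 13794 genes passed. In LR against Control 1 member was higher at an absolute log2 change above 1, and the median change was -3.12 and -3.03 with pseudocounts of 0.1 and 0.5, -3.11 with edgeR and -3.13 with DESeq2. With library medians set equal, the median over all genes moved by 0.12 (DTP against Control) and -0.21 (DTEP against DTP), and the member median for DTP against Control became 0.52. The change of ERBB2 in LR against DTEP ran from -0.023 without DTEP replicate 2 to 0.36 without DTEP replicate 1. For single genes, 1635 values stayed on their side of the adjusted p, 75 lost it, 29 gained it and 1 changed sign. The replicate numbers were not used as pairs in the main fit. With the replicate block 15 of 35 members passed the adjusted p for DTP against Control, beside 7264 of all 13794 genes. For DTEP against DTP it was 33 members, beside 9341 genes, and for LR against DTEP 2, beside 655. For DTEP and LR against Control it was 35 and 33 members, beside 7929 and 8558 genes. On the recovered reads, edgeR called 1581 genes higher and 1694 lower in DTEP against DTP (limma 1122 and 969) and 66 and 539 in LR against DTEP (limma 31 and 63). The causes were not tested. Depth limits what can be said of members with fewer than about 10 reads per library.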
